A study of Mus musculus with 7 samples.

Results

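The ionotropic and metabotropic receptor genes for glutamate, GABA and glycine, other than those of AMPA receptors, were followed in granule neuron precursors sorted by a Nestin reporter. A gene was a member if its platform symbol was one of the Grin1 to Grin3b series, or was Grik or Grm followed by a digit, or was a subunit symbol starting with Gabr, Gabbr, Glra or Glrb. The rule itself uses symbols and no measured value, but members were chosen with earlier results of these data known. It gave 38 genes with 76 single-gene probe sets: 6 NMDA, 5 kainate, 6 metabotropic glutamate, 15 GABA-A, 1 GABA-B and 5 glycine receptor genes, of 18193 genes with a single-gene probe set on the array. All cells came from mice of the genotype Math1-Cre/Ptc-loxp/Nestin-CFP, in which Cre under Math1 (Atoh1) control removes the Hedgehog receptor gene Ptch1 from the granule lineage and a cyan fluorescent protein reports Nestin. The Nestin-positive fraction gave 4 arrays (replicates 1, 3, 4 and 5) and the Nestin-negative fraction 3 (replicates 1, 4 and 5), so both fractions share the deletion and there is no fraction with intact Ptch1. The sample labels put the cells at postnatal day 7 and call the tissue medulloblastoma, while the series description puts them at postnatal day 4. The labels do not say whether cells of several animals were pooled or whether samples came from separate animals, so p-values measure the spread between these samples, which may be partly technical.

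Neurotransmitter receptors appear on granule cells before synapses do. NMDA and kainate receptors are glutamate-gated cation channels built of 4 subunits, metabotropic glutamate receptors signal through G proteins, and GABA-A and glycine receptors are pentameric chloride channels, while GABA-B receptors signal through G proteins to potassium and calcium channels. In the maturing cerebellum the Grin2b-encoded NMDA subunit marks young granule neurons and the Grin2c-encoded subunit mature ones, and the GABA-A subunits encoded by Gabra6 and Gabrd are acquired late, after Gabra2 and Gabra3. In sorted cells, fewer cells of a type and less RNA per cell cannot be told apart.

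Nes, the gene behind the sort, was higher in Nestin-positive cells by 1.73 ± 0.21 (SE) on the log2 scale (limma, adjusted p = 0.0282), which checks the labels and is no finding. The 9 listed markers of granule precursors, Atoh1, Zic1 and Pax6 among them, were all tested, and none was under the median on all arrays of a fraction. With the replicate number as a block, described below, 2 of them rose and 0 fell, and 0 were called without it. Their median log2 difference was 0.04 in either fit. Of 9 listed markers of differentiating granule neurons 7 were tested, and 2 (Neurod2 and Mapt) fell without the block and 5 with it. Over all 11089 genes, 0.577% fell and 0.171% rose without the block, and 6.52% fell and 3.60% rose with it. These shares stand beside all marker counts given here. The median log2 difference of the 7 was -0.90, and Rbfox3 (-0.075) and Calb2 (-0.038) lay near 0. The summed signal of the 8 with a probe set, which include the dim and untested Cbln3 (0.28), was 12966 to 16309 in Nestin-positive and 17904 to 21508 in Nestin-negative samples. GABAergic interneuron markers summed to 3415 to 4196 against 4820 to 5953, and of the 5 tested 2 fell and 1 rose with the block. The falls include that of Gad1, which was bright enough to be tested through its Nestin-negative signals alone. Such a choice by itself favours a fall. Of the genes that define GABA release, the enzyme gene Gad1 and the vesicle transporter gene Slc32a1 did not reach the median on any Nestin-positive array, while the enzyme gene Gad2 reached it on 1 Nestin-positive and 0 Nestin-negative arrays, with overlapping fractions. Microglia markers summed to 358 to 1189 against 2131 to 8132, and 9 of 9 tested fell with the block (2 without it). Of these, C1qc and Lyz2 were likewise tested through their Nestin-negative signals alone, so these counts are partly set by the choice of tested genes. Lyz2 was called in both fits. Pericyte markers summed to 513 to 1934 against 1256 to 9452 (7 of 7 tested fell with the block), and meningeal fibroblast markers to 813 to 2273 against 1680 to 7422 (4 of 4 tested fell with the block). Astrocyte and Bergmann glia markers summed to 12637, 33688, 18444 and 18992 in the Nestin-positive fraction (replicates 1, 3, 4 and 5), and to 10098, 25166 and 24665 in the Nestin-negative fraction (replicates 1, 4 and 5). Of 5 tested oligodendrocyte lineage markers 2 rose and 0 fell with the block, and of 4 tested Purkinje cell markers 1 rose and 0 fell. Of 2 tested unipolar brush cell markers 1 fell and 0 rose with the block, and of 6 tested endothelial markers 0 were called. The part of these cell types in the receptor results was not tested.

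Where receptor genes differed between the fractions they were lower in Nestin-positive cells, and no tested member rose in either fit. The NMDA subunit gene Grin2b, the kainate subunit genes Grik3 and Grik5 and the GABA-B subunit gene Gabbr1 had lower signals on all 4 Nestin-positive arrays than on any Nestin-negative array, with fitted folds of 1.78 to 2.68. A probe set was tested if its signal reached the array median (64.4 to 94.5) on at least 3 of the 7 arrays. By this filter 15 of the 38 genes were tested and 23 were not. Limma called 0 of the 15 at an adjusted p of 0.05, beside 0.577% lower and 0.171% higher over all 11089 genes. Before adjustment, 4 had a p under 0.05 and were lower, and 0 were higher, beside 9.09% and 5.33% of all genes. The same 4 had non-overlapping fractions, beside 9.11% of all genes that were lower and 5.87% that were higher without overlap. With the replicate number as a block, which compares replicates 1, 4 and 5 within pairs and leaves out Nestin-positive replicate 3, 6 of the 15 fell and 0 rose, beside 6.52% and 3.60% of all genes. These were the 4 genes named and Grm3 and Gabrb1. Gabrb1 passed the filter with the help of Nestin-positive replicate 3, which the blocked fit leaves out. On the paired arrays Gabrb1 reached the array median on Nestin-negative replicates 4 and 5 alone. Its call therefore rests on Nestin-positive signals under the median and is weak. The pairing was read from the data and not from the labels. Log2 differences were negative for 10 of the 15 without the block (54.5% of all genes) and for 12 with it (52.6%). Their median was -0.24, beside -0.03 over all genes tested, and -0.37 beside -0.01 with the block. Dropping replicate 1 of the Nestin-positive fraction moved the median without the block to -0.054, and dropping replicate 1 of the Nestin-negative fraction moved it to -0.48.

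**Figure D1:**
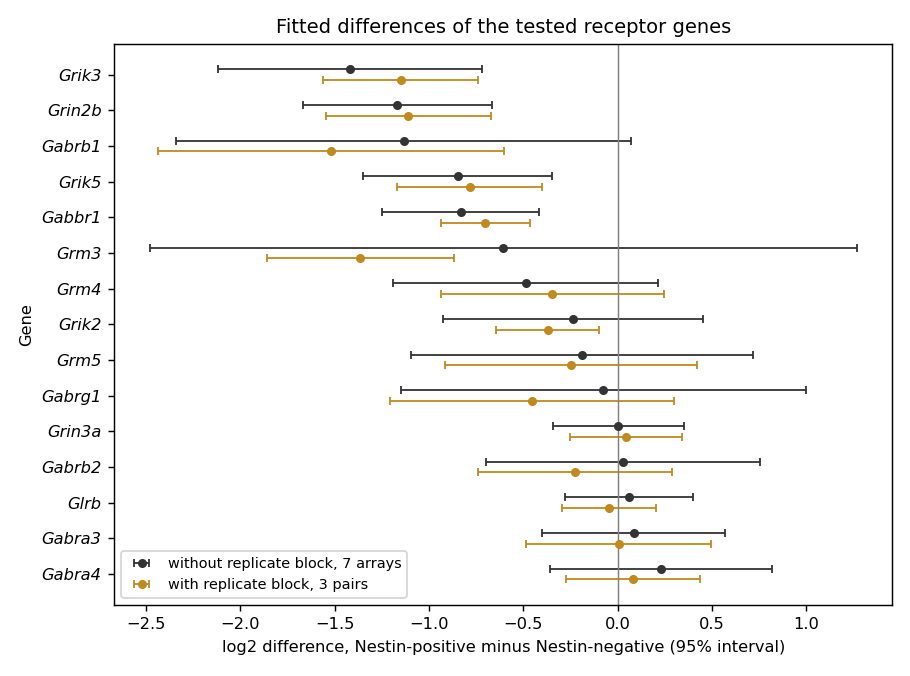
Fitted log2 difference (Nestin-positive minus Nestin-negative, horizontal axis) of each of the 15 tested receptor genes, with bars for the 95% interval of each single gene, not adjusted over genes; dark points use all 7 arrays and ochre points the 3 pairs of the replicate block. Grik3, Grin2b, Grik5 and Gabbr1 lie left of zero in both fits, Grm3 and Gabrb1 have wide intervals that span zero without the block, and Grin3a, Glrb and Gabra3 lie near zero.

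**Figure D2:**
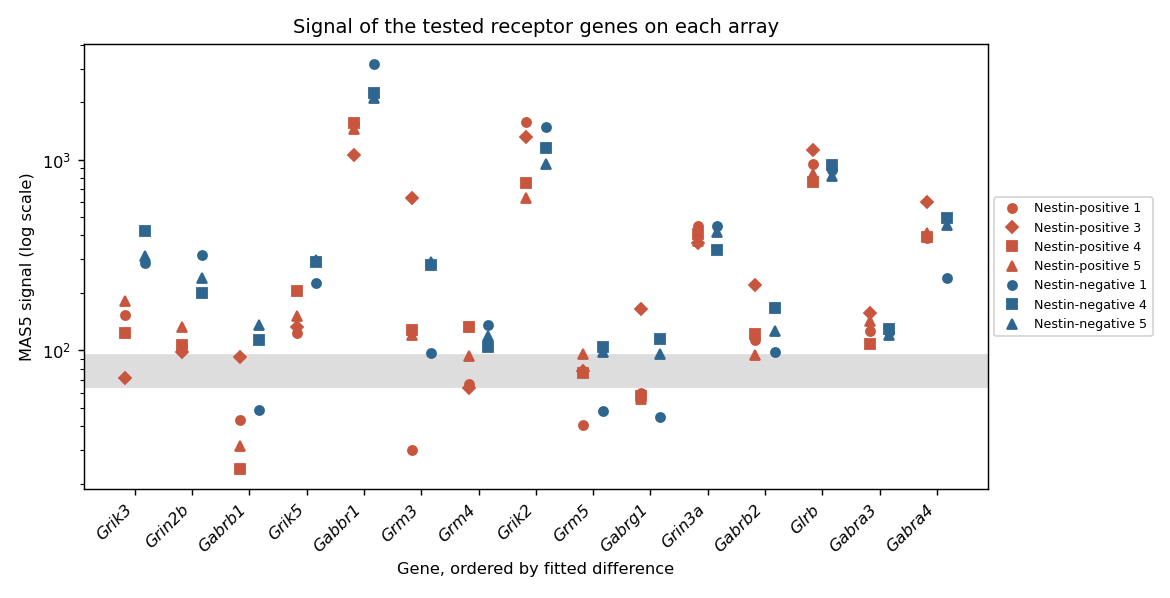
MAS5 signal (log axis) of the probe set standing for each tested gene, on each Nestin-positive (red) and Nestin-negative (blue) array, with 1 marker shape per replicate number; the grey band is the range of the array medians. The fractions are separate for Grik3, Grin2b, Grik5 and Gabbr1 and overlap for the other 11 genes; heights of different genes are not comparable, since probe sets differ in response.

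Among NMDA receptor genes, Grin2b, the glutamate-binding subunit of young neurons, had signals of 107, 97.8, 107 and 132 in Nestin-positive replicates 1, 3, 4 and 5, against 316, 201 and 240 for Nestin-negative replicates 1, 4 and 5. The fractions did not overlap, and each Nestin-negative sample lay well above the highest Nestin-positive one. The means were 111 ± 14.6 (SD, n = 4) and 252 ± 58.5 (SD, n = 3). The log2 difference was -1.17 ± 0.22 (SE), or 2.25-fold lower, and missed the threshold without the block (limma, adjusted p = 0.0505) and passed it with the block (-1.11 ± 0.21, adjusted p = 0.00126). Dropping single arrays gave adjusted p-values of 0.0717 to 0.160. A second Grin2b probe set that passed the filter gave 86.2, 51.1, 69.4 and 112 against 254, 200 and 147, again without overlap and 2.56-fold lower. The remaining 2 Grin2b probe sets were below the array median on all 7 arrays, with log2 differences of 0.12 and 1.15.

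Grin3a, a glycine-binding NMDA subunit, was measured by 2 probe sets that passed the filter and showed no such difference. The brighter gave 448, 365, 407 and 375 in Nestin-positive and 448, 336 and 415 in Nestin-negative samples. Its log2 difference was 0.00 ± 0.15 (SE), with a 95% interval from -0.34 to 0.35 (adjusted p = 0.996), which does not reach the size of the Grin2b difference. Grin2c, the subunit of mature granule neurons, stayed near the array medians, with 56.4, 54.2, 96.5 and 62.9 against 79.6, 104 and 41.0. It overlapped between fractions, lay at or above the array median on 1 array of each, and was not tested. Grin2a had signals of 1.15 to 14.7 in Nestin-positive and 1.37 to 16.6 in Nestin-negative samples, all below the array median, as were those of Grin2d. Grin3b lay above the array median on 1 Nestin-positive array.

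Of the kainate receptor genes, 2 had non-overlapping fractions. Grik3, a low-affinity kainate subunit, had 154, 71.4, 123.1 and 182 in Nestin-positive and 286, 423 and 312 in Nestin-negative samples. The fractions were separate, and Nestin-positive replicate 3 lay below its array median. The log2 difference was -1.42 ± 0.31 (SE), or 2.68-fold lower (limma, adjusted p = 0.0772), and -1.15 ± 0.20 with the block (adjusted p = 0.000532). With the array median as a floor for dim values, the difference was -1.36 and passed without the block (adjusted p = 0.0442). Dropping single arrays gave adjusted p-values of 0.0836 to 0.263. Grik5, a high-affinity subunit that forms channels only together with the low-affinity ones, had 124, 132, 205 and 152 against 227, 291 and 298. Its nearest samples, Nestin-positive replicate 4 and Nestin-negative replicate 1, stood close together. The difference was -0.85 ± 0.22 (SE), or 1.80-fold lower (limma, adjusted p = 0.117), and -0.78 ± 0.18 with the block (adjusted p = 0.00757). That call was lost without the pair of replicate 5 (adjusted p = 0.0701). A second Grik3 probe set was under the array median throughout.

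Grik2, another low-affinity subunit, varied more between replicates than between fractions, with 1568, 1318, 755 and 629 in Nestin-positive and 1486, 1151 and 943 in Nestin-negative samples. Within pairs the log2 differences were 0.08, -0.61 and -0.58 for replicates 1, 4 and 5. The fitted difference was -0.24 ± 0.31 (SE) without the block (limma, adjusted p = 0.780) and -0.37 ± 0.13 with it (adjusted p = 0.0800; 0.00320 without the pair of replicate 1). Without the block, dropping single arrays moved it between -0.016 (replicate 5 of the Nestin-positive fraction) and -0.45 (replicate 1 of that fraction), and the mean of its 2 probe sets gave -0.44. Grik1 was below the array median on every array and Grik4 on all but Nestin-negative replicate 5.

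**Figure D3:**
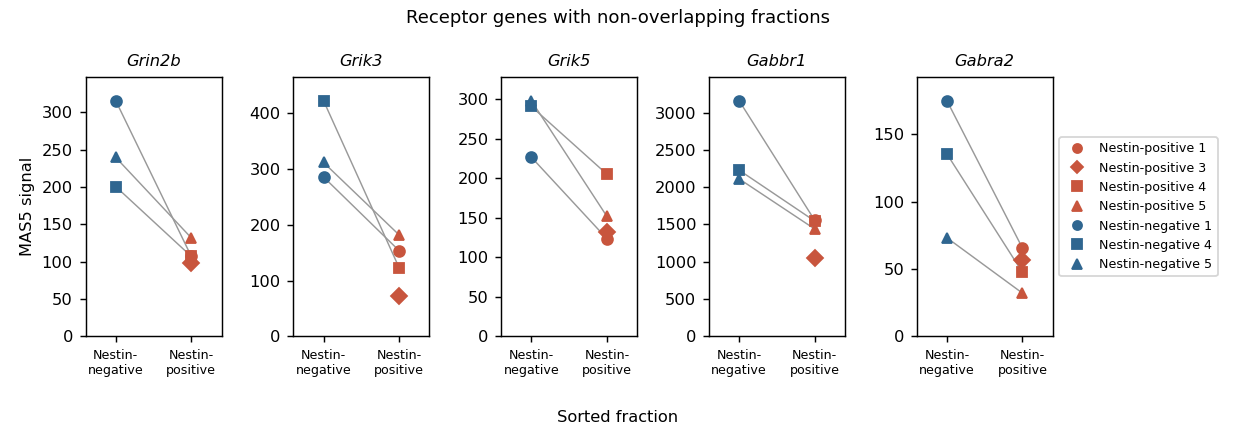
MAS5 signal (linear axis from 0) of 5 receptor genes in the Nestin-negative and Nestin-positive fraction, with 1 marker shape per replicate number and lines joining samples that share a number. In each panel every Nestin-positive sample lies below every Nestin-negative one and all 3 lines slope down; Gabra2 did not pass the filter on dim signals.

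Promoter windows are shown for the 4 of these 5 genes with an entry, since their signals were lower in Nestin-positive samples without overlap. RefSeq sequence of the GRCm38.p6 build was held for 30 of the 38 member genes, in 37 windows of 250 bases that end just before an annotated start. Each is written 5′ to 3′ in the direction of the gene, and capitals mark the GC box GGGCGG on either strand (CCGCCC on the other), the letters bound by Sp1-type factors.
Grik3, chr4:125490446-125490695, plus strand: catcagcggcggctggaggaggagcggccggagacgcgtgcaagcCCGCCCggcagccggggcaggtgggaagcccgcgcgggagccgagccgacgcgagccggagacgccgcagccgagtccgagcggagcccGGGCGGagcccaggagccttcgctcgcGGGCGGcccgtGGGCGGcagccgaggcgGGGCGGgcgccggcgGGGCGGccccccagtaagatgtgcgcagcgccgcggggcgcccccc
Grik5, chr7:25072370-25072619, minus strand: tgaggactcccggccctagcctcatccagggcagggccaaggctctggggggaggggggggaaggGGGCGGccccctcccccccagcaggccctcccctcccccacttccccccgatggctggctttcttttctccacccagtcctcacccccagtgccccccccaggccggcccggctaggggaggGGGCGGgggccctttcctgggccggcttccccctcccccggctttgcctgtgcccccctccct
Gabbr1, chr17:37045716-37045965, plus strand: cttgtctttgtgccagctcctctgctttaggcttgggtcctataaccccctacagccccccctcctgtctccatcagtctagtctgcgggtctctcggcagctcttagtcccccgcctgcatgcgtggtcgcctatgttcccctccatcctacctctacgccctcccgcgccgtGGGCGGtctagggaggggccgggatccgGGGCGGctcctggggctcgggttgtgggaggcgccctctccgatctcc
Gabra2, chr5:71095850-71096099, minus strand: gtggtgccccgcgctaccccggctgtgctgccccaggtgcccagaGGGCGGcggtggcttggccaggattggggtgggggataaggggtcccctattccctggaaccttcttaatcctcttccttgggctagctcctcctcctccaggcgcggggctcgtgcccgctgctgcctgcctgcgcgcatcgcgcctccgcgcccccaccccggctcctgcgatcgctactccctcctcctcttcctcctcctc
For comparison, the glycine receptor gene Glrb, whose fractions overlapped, has this window.
Glrb, chr3:80913661-80913910, minus strand: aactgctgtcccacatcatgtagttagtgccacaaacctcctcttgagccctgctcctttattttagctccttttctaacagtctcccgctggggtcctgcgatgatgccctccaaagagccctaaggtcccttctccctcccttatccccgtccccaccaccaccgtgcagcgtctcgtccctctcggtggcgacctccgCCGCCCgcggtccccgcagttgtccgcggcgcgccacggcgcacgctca
The GC content was 82.0% for Grik3, 75.2% for Grik5, 66.0% for Gabbr1, 70.0% for Gabra2 and 62.4% for Glrb, beside a median of 52.4% over all 32851 windows in the table and 58.8% over the 37 of members. Grik3 had 6 GC boxes, Grik5 and Gabbr1 2 each, and Gabra2 and Glrb 1 each. A GC box was in 20 of the 37 member windows and in 32.7% of all windows. The E-boxes CAGATG and CAGCTG, letters read by bHLH factors such as Atoh1 and Neurod1, were in 3 and 2 of the 37 windows (14.4% and 13.0% of all windows) and in none of the 5 shown. TATAAA was in 5 of the 37 (12.4% of all), also in none shown, and the Gli site GACCACCCA in 0 (0.225% of all). Both strands were searched, and matches within a window may overlap each other. A match is a description of the letters and not of binding.

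The metabotropic glutamate receptor genes that were tested, Grm3, Grm4 and Grm5, had negative differences and overlapping fractions. Grm3, a Gi-coupled receptor common in astrocytes, had 30.1, 631, 127 and 120 in Nestin-positive replicates 1, 3, 4 and 5 against 96.6, 279 and 290 in the Nestin-negative fraction. The highest and the lowest sample were both Nestin-positive, so that the difference of -0.61 ± 0.84 (SE) did not pass without the block (limma, adjusted p = 0.794). Within pairs Grm3 was lower in the Nestin-positive sample by -1.68, -1.13 and -1.28 on the log2 scale, and it fell with the block, which leaves out replicate 3 (-1.36 ± 0.24, adjusted p = 0.000601). Without the block, leaving out Nestin-positive replicate 1 turned the difference to 0.10.

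Glial genes varied over the same samples. Aqp4, the astrocyte water channel gene, had 114, 1048, 457 and 508 against 299, 2008 and 1494, and fell with the block by 1.69 ± 0.14 (limma, adjusted p = 1.33e-07). Fabp7, a lipid-binding protein of radial and Bergmann glia, had 1047, 14175, 4605 and 5303 against 1174, 8449 and 9900. In both fractions replicate 1 was lowest for Grm3, Aqp4 and Fabp7, and Nestin-positive replicate 3 was the highest Nestin-positive sample. With the block, 5 of the 13 astrocyte and Bergmann glia markers fell and 2 rose, beside 6.52% and 3.60% of all genes. The part of glial cells in the Grm3 values was not tested.

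**Figure D4:**
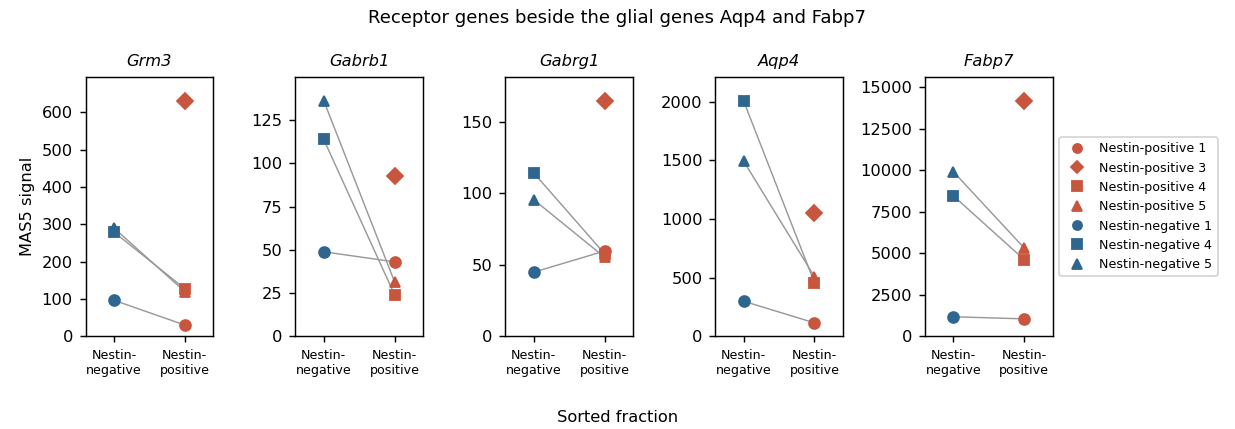
MAS5 signal (linear axis from 0) of the receptor genes Grm3, Gabrb1 and Gabrg1 and of the glial genes Aqp4 and Fabp7 in both fractions, with 1 marker shape per replicate number and lines joining samples that share a number. Nestin-positive replicate 3, which has no partner, is the highest Nestin-positive sample in all 5 panels, and for Aqp4 it lies at 1048, under Nestin-negative replicates 4 and 5.

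Grm4, a presynaptic Gi-coupled receptor of granule cells, had 66.4, 63.1, 133 and 93.0 in Nestin-positive and 137, 104 and 118 in Nestin-negative samples. Nestin-positive replicate 4 lay among the Nestin-negative samples, and the difference of -0.49 ± 0.31 (SE) did not pass (limma, adjusted p = 0.537 in both fits). Grm5, a Gq-coupled receptor, had 40.8, 78.0, 75.8 and 95.7 against 48.3, 104 and 98.5, with a difference of -0.19 ± 0.41 (adjusted p = 0.875). Signals of Grm2, a marker of Golgi interneurons, and of Grm8 were below the array median on all arrays, and those of Grm7 on all but Nestin-negative replicate 4. These genes were not tested.

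Gabbr1, the GABA-binding subunit of the GABA-B receptor, was the member with the smallest adjusted p with the block. Its signal was 1556, 1051, 1546 and 1439 in Nestin-positive and 3160, 2229 and 2112 in Nestin-negative samples. The fractions were separate, with means of 1398 ± 237 (SD, n = 4) and 2500 ± 574 (SD, n = 3). The difference was -0.83 ± 0.19 (SE), or 1.78-fold lower (limma, adjusted p = 0.0792; 0.0799 to 0.199 when single arrays were dropped), and -0.70 ± 0.11 with the block (adjusted p = 0.000305). Its probe sets differed in size. A dimmer one gave 61.4, 63.4, 68.5 and 83.8 against 167, 123.6 and 123.2, 1.99-fold lower without overlap. Another gave 1061, 930, 1390 and 1066 against 1323, 1423 and 1589, 1.31-fold lower, with Nestin-positive replicate 4 above Nestin-negative replicate 1. Tested by itself with the block and adjusted over probe sets, the latter had an adjusted p of 0.203. The fourth was below the array median throughout.

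Genes that act with the GABA-B receptor moved in both directions. Of the 7 listed auxiliary subunits and effector channels, 4 were tested, and limma called 0 without the block. In that fit 2 were higher and 2 lower with an unadjusted p under 0.05, beside 5.33% and 9.09% of all genes. With the block 2 rose and 1 fell, beside 3.60% and 6.52% of all genes. Kctd8, an auxiliary subunit that shapes receptor kinetics, had 596, 706, 736 and 537 in Nestin-positive and 534, 446 and 386 in Nestin-negative samples, and rose with the block by 0.45 ± 0.14 (adjusted p = 0.0375). Kctd12b, of the same family, had 526, 362, 626 and 385 against 343, 260 and 333, and rose with the block by 0.70 ± 0.17 (adjusted p = 0.00928). Both had non-overlapping fractions, on the other side from Gabbr1, beside 5.87% of all genes that were higher without overlap. Kcnj3, a potassium channel subunit opened by the receptor's G protein, had 543, 707, 436 and 615 against 866, 804 and 785 and fell with the block (-0.64 ± 0.13, adjusted p = 0.00242). Its partner Kcnj6 had 245, 175, 161 and 230 against 364, 250 and 263, also without overlap, and did not pass (adjusted p = 0.303, and 0.0928 with the block).

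**Figure D5:**
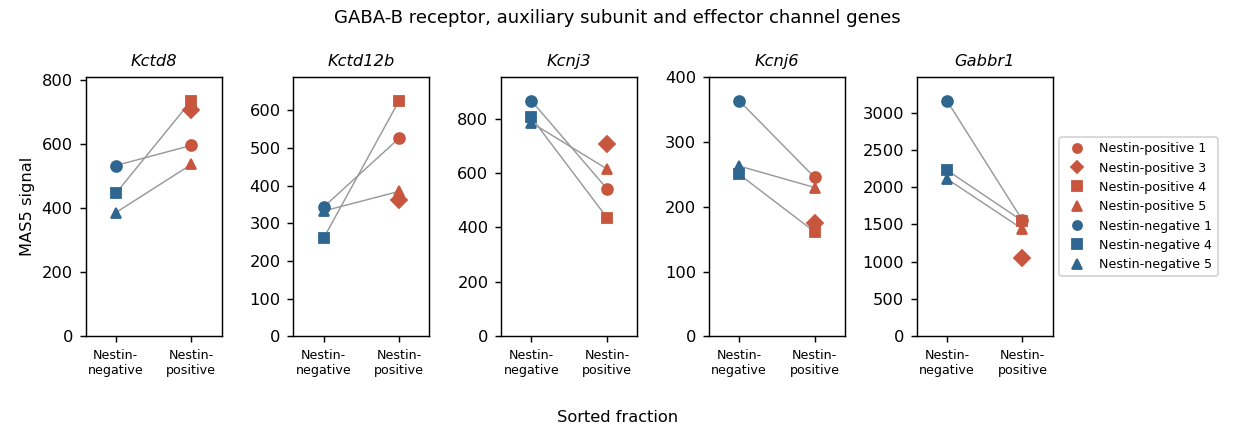
MAS5 signal (linear axis from 0) of the auxiliary subunit genes Kctd8 and Kctd12b, the effector channel genes Kcnj3 and Kcnj6 and the receptor gene Gabbr1 in both fractions, with 1 marker shape per replicate number and lines joining samples that share a number. Kctd8 and Kctd12b lie higher, and the other 3 genes lower, in all Nestin-positive samples.

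The largest family, the 15 GABA-A receptor genes, was mostly dim. Signals of 10 genes did not pass the filter. Gabra2, an alpha subunit of immature neurons, came nearest. Its brightest probe set had 65.5, 57.0, 47.5 and 32.1 in Nestin-positive samples, all below the array median, and 175, 136 and 73.2 in Nestin-negative samples, the first 2 above it. The fractions did not overlap, and Gabra2 was at least 1.56-fold lower in Nestin-positive cells, a bound that sets their signals at the array medians. Fitted without the filter, over 18193 genes, the difference was -1.30 ± 0.39 (SE; limma, adjusted p = 0.215), and it passed with the block (-1.37 ± 0.32, adjusted p = 0.0331). In that fit 6 of the 38 members fell and 0 rose, beside 2.87% of all genes that fell, and Gabra2 took the place of Gabrb1. A second Gabra2 probe set had 29.6, 27.4, 14.7 and 22.7 against 51.1, 127 and 51.1, without overlap, and the other 3 were below the array median throughout and overlapped.

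Gabrb1, a beta subunit, had 43.0, 92.6, 23.9 and 31.3 in Nestin-positive and 48.9, 114 and 136 in Nestin-negative samples. It reached the array median on Nestin-positive replicate 3 and Nestin-negative replicates 4 and 5 alone. The difference was -1.13 ± 0.54 (SE; limma, adjusted p = 0.381), and -1.52 ± 0.44 with the block (adjusted p = 0.0305). The pairs differed by -0.18, -2.25 and -2.12 for replicates 1, 4 and 5, and the call was lost without the pair of replicate 4 (adjusted p = 0.116) or 5 (0.236). With the array median as a floor for dim values, and no block, the difference was -0.52. Like the summed glial markers, Gabrb1 was lower in replicate 1 of the Nestin-negative fraction than in replicates 4 and 5. In the Nestin-positive fraction the glial sum was lowest in replicate 1, but Gabrb1 was higher there (43.0) than in replicates 4 and 5 (23.9 and 31.3). The part of glial cells in the Gabrb1 values was not tested.

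The other tested GABA-A genes overlapped between fractions. Gabra4, an alpha subunit, had 390, 602, 395 and 412 in Nestin-positive and 240, 495 and 452 in Nestin-negative samples, with a difference of 0.23 ± 0.26 (SE; limma, adjusted p = 0.748) and a 95% interval from -0.36 to 0.82. Gabra3, an early alpha subunit, had 127, 156, 108 and 143 against 124, 129 and 121, with a difference of 0.09 ± 0.22 (adjusted p = 0.893) and an interval from -0.40 to 0.57. Gabrb2, a beta subunit, had 113, 221, 122 and 94.4 against 97.9, 168 and 127 and a difference of 0.03 ± 0.33 (adjusted p = 0.981). Its 3 other probe sets that passed the filter had differences of -0.03 to -0.26. Gabrg1, a gamma subunit, had 59.6, 165, 57.7 and 55.3 against 44.8, 114 and 95.5, a difference of -0.08 ± 0.48 (adjusted p = 0.966). Nestin-positive replicate 3 was the highest array for Gabra4, Gabra3, Gabrb2 and Gabrg1.

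The GABA-A subunits of mature granule cells were not above the array median on any array. Gabra6 had 24.8, 2.31, 26.1 and 26.0 against 19.9, 28.8 and 24.8. The brighter Gabrd probe set by mean log2 signal had 5.76, 3.54, 16.5 and 7.69 against 25.1, 8.36 and 12.5. The other had 4.05, 4.01, 4.87 and 4.46 against 23.4, 12.1 and 26.9, values too low for a fold. Gabra5, Gabre, Gabrg3, Gabrp, Gabrq, Gabrr1 and Gabrr2 were likewise below the array median on all arrays. In RefSeq gene order, 4 members, Gabrg1, Gabra2, Gabra4 and Gabrb1, lie side by side on chromosome 5 with 1 other coding gene among them. No fit called more than 1 of these neighbours: with the block, Gabrb1 passed among the filtered genes and Gabra2 in the fit without the filter.

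Glrb, the beta subunit that anchors glycine receptors to gephyrin, was the single glycine receptor gene that passed the filter. Its brighter probe set had 953, 1128, 759 and 845 in Nestin-positive and 881, 931 and 818 in Nestin-negative samples. The fractions overlapped fully, with a difference of 0.06 ± 0.15 (SE; limma, adjusted p = 0.897) and a 95% interval from -0.28 to 0.40. Its other probe set had 909, 1106, 803 and 1274 against 701, 810 and 675, a difference of 0.47 ± 0.17 when tested by itself and adjusted over probe sets (adjusted p = 0.361). Glra1, Glra2, Glra3 and Glra4, the ligand-binding alpha subunits, were below the array median on all arrays.

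Of 26 listed glutamate receptor partners, such as scaffolds and kinases of the postsynaptic density, 21 were tested and 2 fell, beside 0.577% of all genes. The median log2 difference was -0.25, beside -0.03 over all genes tested. Camk2d, a calcium- and calmodulin-dependent kinase subunit, had 326, 300, 289 and 353 in Nestin-positive and 616, 562 and 495 in Nestin-negative samples (-0.81 ± 0.15 SE; limma, adjusted p = 0.0403). Grina, a membrane protein named for its link to NMDA receptors, had 1541, 1202, 1684 and 1437 against 2736, 2427 and 2242 (-0.76 ± 0.14; adjusted p = 0.0470). Of all partner genes, 0 were called without the block when Nestin-positive replicate 3 or 5 or any Nestin-negative array was dropped, and 1 when Nestin-positive replicate 1 or 4 was. With the block Dlg2 and Dlgap1, of the scaffold beneath NMDA receptors, fell too (-0.67 ± 0.17, adjusted p = 0.0118, and -0.66 ± 0.15, adjusted p = 0.00568), and 0 genes of this list rose. The Dlg2 fractions overlapped, and its pairs differed by -1.08, -0.93 and 0.01 for replicates 1, 4 and 5. The Dlgap1 fractions did not overlap. In the fit without the block, 1 gene of this list was higher and 6 lower with an unadjusted p under 0.05, beside 5.33% and 9.09% of all genes. The kainate receptor auxiliary subunit genes Neto1 and Neto2 did not pass (differences of 0.15 ± 0.25 and -0.06 ± 0.12).

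Of 17 listed GABA-A and glycine receptor partners 14 were tested, and limma called 0 with or without the block (0 with an unadjusted p under 0.05 in the fit without it). The scaffold gene Gphn differed by -0.07 ± 0.12 (SE). Of 18 genes of transmitter synthesis and transport 9 were tested and 0 passed without the block. In that fit 1 was higher and 4 lower with an unadjusted p under 0.05, beside 5.33% and 9.09% of all genes. With the block, Abat, which degrades GABA, and the glycine transporter gene Slc6a9 fell and the glutamate transporter gene Slc1a2 rose. Gad1 had 0.952, 43.2, 59.9 and 67.4 in Nestin-positive and 269, 434 and 399 in Nestin-negative samples, the former all below the array median. It passed the filter through the Nestin-negative arrays alone, so its call with the block is not counted here, and it was at least 4.66-fold lower. Among 3 tested cation-chloride transporters, which set whether GABA excites or inhibits, limma called 0 in either fit (0 with an unadjusted p under 0.05 in the fit without the block). Slc12a2, the importer, differed by -0.12 ± 0.14, and the exporter gene Slc12a5 reached the median on 1 Nestin-positive and 0 Nestin-negative arrays and was not tested.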

How the data were processed

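RNA of each sorted sample was measured on 1 Affymetrix mouse array. The deposited values are linear MAS5 signal intensity (the submitters' processing notes name MAS5 without a version). The trimmed mean (2% off each end) was 500.0 on every array.

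Groups and replicate numbers came from the titles. The table holds 45101 probe sets, of which 64 are controls and were not used. Gene symbols are those of the platform annotation, brought up to date where the Entrez ID was in the GRCm38.p6 RefSeq table; 34945 probe sets had 1 gene. A probe set shared by Grm2 and another gene, and one shared by Gabrg3, were not used, and Grin1 and Gabbr2 were not analysed here. Log2 was taken without a pseudocount. Probe sets at or above the array median on at least 3 arrays were kept, and the brightest by mean log2 signal stood for its gene (11089 genes). Limma 3.58.1 in R 4.3.3 (eBayes with an intensity trend, two-sided) was fitted on all genes, with Benjamini-Hochberg adjustment over them. On simulated data with 4-fold changes in 200 of 11089 genes the fit without the block recovered 185, with 10 false calls. Neither the blocked fit nor recovery of smaller folds, such as those reported, was simulated. Across genes, samples with the same number deviated together from their group means (r = 0.705 for replicate 1, 0.391 for 4 and 0.47 for 5). These were above the 0.1 set for treating the numbers as pairs. Samples with different numbers had r from -0.598 to 0.187, so some of these also passed 0.1 and the cutoff alone does not mark pairs. Deviations within a fraction cancel out, which by itself lowers r between different numbers. The blocked fit has 20.2 degrees of freedom after moderation, mostly pooled over genes.

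Values on every array are given for members that passed either fit, the other members with the smallest p-values, and 12 subunits chosen for granule neuron development. Of partner genes, those called and up to 3 per list are named; Dlg2, Slc6a9, Neto1, Neto2, Gphn, Slc12a2, Slc12a5 and Kcnj6 were added after their values were seen. Members and lists were chosen with earlier results of these data known.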

Additional observations from a re-analysis of the deposited data

Results flagged for a closer look

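In 3 of 20 receptor genes examined, Nestin-positive replicate 3 stood far from the other 3 Nestin-positive arrays on the log2 scale. Chance flags about 1 in 20 groups of arrays, a rate per group and not per gene. All 3 flags are of the same array and so are not independent, and no excess over chance can be read from them. The gap of replicate 3 to the nearest array was 0.872 of the group's range for Gabra4 (602 against 390 to 412) and 0.932 for Gabrg1 (165 against 55.3 to 59.6), both on the high side. It was 0.979 for Gabra6 on the low side (2.31 against 24.8 to 26.1), where all signals were below the array median. The same array was the highest Nestin-positive one for the summed astrocyte and Bergmann glia markers (33688). Whether that moved the receptor values was not tested.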

How the results depend on the processing

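The number of arrays limits every value, and MAS5 ratios of signals under the array median are noisy. No member was called higher under any alternative. With the replicate block, which rests on 3 pairs, 6 members were called lower, beside 6.52% of all genes. That count was 7, 5 and 4 without the pairs of replicates 1, 4 and 5, beside 546, 886 and 598 lower of all 11089 genes. It was 6 with the block and no filter, beside 2.87% of all genes. These fits were chosen after seeing the data. Without the block the count was 1 with a pseudocount of 16 (Grin2b) and 2 with values raised to the array median (Grin2b and Grik3). Beside these, 82 and 98 of all 11089 genes were lower. The count was 0 under the other settings, with single arrays dropped or with each probe set tested separately, the latter also added later. The median over tested members was -0.48 to -0.054 when single arrays were dropped, -0.44 with the mean of probe sets and -0.54 with the block and without replicate 1.

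Nes differed by 1.60 to 1.86 when single arrays were dropped (adjusted p 0.0161 to 0.118) and by 1.73 without an intensity trend (adjusted p = 0.0547). Partner genes called (Gad1 included) numbered 11 with the block (12, 10 and 9 without replicates 1, 4 and 5), 0 to 1 when single arrays were dropped, and 0 with quantile normalization, no filter, the mean of probe sets or no trend; the cause was not tested.

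The sign changed in 9 genes, none called without the block; the cause was not tested. When single arrays were dropped the differences ran from -0.10 to 0.43 for Gabra4, -0.23 to 0.22 for Gabrb2, -0.48 to 0.19 for Gabrg1, -0.045 to 0.15 for Glrb, -0.12 to 0.091 for Grin3a, -1.36 to 0.10 for Grm3 and -0.54 to 0.066 for Grm5. The block gave -0.23 for Gabrb2 and -0.045 for Glrb. Without replicate 1 it gave -0.0062 for Gabra3, -0.23 for Gabra4, -0.44 for Gabrb2, -0.12 for Glrb and 0.0018 for Grm4. Without replicate 4 it gave -0.11 for Gabrb2 and -0.073 for Grin3a, and without replicate 5 -0.12 for Gabra3, -0.13 for Gabrb2 and -0.091 for Glrb. The mean of probe sets gave -0.13 for Gabrb2, and quantile normalization -0.0011 for Grin3a.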
